A study of Homo sapiens with 4 samples.

Results

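The genes described here are the replication-dependent core histone genes, the many small copies of H2A, H2B, H3 and H4 that stand in clusters on chromosomes 6, 1 and 12. They were taken by name, as every gene whose symbol begins with HIST1H2A, HIST1H2B, HIST1H3, HIST1H4, HIST2H, HIST3H or HIST4H, which gave 64 of the 23004 genes in the files. By type they are 17 H2A, 20 H2B, 13 H3 and 14 H4 genes. By cluster, 50 belong to HIST1 on chromosome 6, 10 to HIST2 and 3 to HIST3 on chromosome 1, and 1 to HIST4 on chromosome 12. Among them are 3 pseudogenes, HIST1H2APS1, HIST2H2BA and HIST2H2BC.

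RNA was sequenced from BEAS-2B, an immortalized human cell line of bronchial epithelium from the lung. Cells were either left without exposure (untreated, 2 libraries) or kept in 100 µM formaldehyde for 48 h (2 libraries). The labels give the dose and time, and the series title names formaldehyde, a small aldehyde that joins DNA and protein, together with chromatin assembly. No label says whether the libraries of a group come from separate cultures, so every p-value here reflects library-to-library spread alone, of technical or other origin.

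Core histones form the protein spool around which DNA is wound, as 2 copies each of H2A, H2B, H3 and H4. Their genes are switched on as cells enter S phase, when new DNA has to be packaged, by a programme that runs through the coactivator NPAT, the octamer-binding factor POU2F1 for H2B and HINFP for H4. The messages are unusual in that most carry no poly(A) tail. They end just behind a short stem-loop that the protein SLBP holds and that U7 snRNA helps to cut, and they are broken down when DNA synthesis stops. Some of these genes can also be read through to a downstream poly(A) signal.

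The stem-loop is the feature that sets these messages apart from others and that bears on how a library captures them. It was found by its standard pattern in the GENCODE 29 transcripts of 30 of the 64 genes, 6 of 17 H2A, 12 of 20 H2B, 5 of 13 H3 and 7 of 14 H4. Of the other 34 genes, 31 have a transcript model there that ends at the stop codon and so stops short of the place where the stem-loop would lie. The 30 genes hold 6 distinct words of 16 bases. All 7 H4 words start with GGCCC, and none of the 23 from the other types does. One gene of each kind of word is shown, with the 16 bases of the stem-loop in capitals and 5 bases on each side, from the sense strand of the transcript.
HIST2H2AA3: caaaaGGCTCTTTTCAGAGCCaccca
HIST1H2AG: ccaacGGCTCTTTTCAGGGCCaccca
HIST1H2BC: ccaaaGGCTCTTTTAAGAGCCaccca
HIST1H3E: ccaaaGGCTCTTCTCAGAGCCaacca
HIST1H4E: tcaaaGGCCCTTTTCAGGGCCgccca
HIST2H4B: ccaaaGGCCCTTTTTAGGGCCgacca
Where a gene has several transcripts, the one that runs furthest past the stem-loop was taken. In 22 of the 30 genes this GENCODE transcript goes on for more than 100 bases beyond the stem-loop. Of these 22, 12 had a mean of at least 1 FPKM (a level per length: fragments for each kilobase of the transcript, relative to sequencing depth). Of the 8 in which it ends nearer to the stem-loop, 4 did. Transcripts without a stem-loop were not looked at here, so the split does not say how the messages of a gene end.

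The stretch before each start site is shown for the genes on which the later values turn. HIST1H2BK had the highest level, HIST2H2BE and HIST1H2BH had the lowest fitted values with formaldehyde among the genes tested, HIST1H4E was the expressed H4 gene whose groups did not overlap, and HIST1H4F was listed at 0 in every library. The 250 bases before the start are RefSeq sequence of the build GRCh38.p14, read 5′ to 3′ in the direction of the gene. Capitals mark the octamer ATTTGCAT, the CCAAT box and the TATA box TATAAA on either strand.
HIST1H2BK promoter, chr6:27146859-27147108, minus strand: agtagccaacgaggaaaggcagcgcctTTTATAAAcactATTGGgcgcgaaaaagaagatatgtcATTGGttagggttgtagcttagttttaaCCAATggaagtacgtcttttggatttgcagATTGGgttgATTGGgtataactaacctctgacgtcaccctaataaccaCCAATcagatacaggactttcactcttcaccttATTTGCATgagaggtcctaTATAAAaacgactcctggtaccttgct
HIST2H2BE promoter, chr1:149886683-149886932, minus strand: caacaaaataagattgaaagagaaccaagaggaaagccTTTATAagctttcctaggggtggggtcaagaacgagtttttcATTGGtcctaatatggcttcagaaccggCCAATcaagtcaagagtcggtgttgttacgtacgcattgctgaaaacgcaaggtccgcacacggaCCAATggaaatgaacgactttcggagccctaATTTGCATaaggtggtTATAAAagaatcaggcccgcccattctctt
HIST1H2BH promoter, chr6:26251364-26251613, plus strand: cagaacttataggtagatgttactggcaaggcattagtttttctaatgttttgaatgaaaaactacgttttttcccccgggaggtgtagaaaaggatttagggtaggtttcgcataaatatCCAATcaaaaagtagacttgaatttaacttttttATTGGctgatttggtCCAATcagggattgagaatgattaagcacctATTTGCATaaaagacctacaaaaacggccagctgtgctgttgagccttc
HIST1H4E promoter, chr6:26204360-26204609, plus strand: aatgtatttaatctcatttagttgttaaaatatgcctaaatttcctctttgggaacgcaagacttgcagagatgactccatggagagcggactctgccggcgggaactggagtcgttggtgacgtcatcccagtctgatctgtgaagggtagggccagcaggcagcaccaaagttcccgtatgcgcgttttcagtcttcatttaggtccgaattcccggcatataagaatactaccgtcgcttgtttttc
HIST1H4F promoter, chr6:26240143-26240392, plus strand: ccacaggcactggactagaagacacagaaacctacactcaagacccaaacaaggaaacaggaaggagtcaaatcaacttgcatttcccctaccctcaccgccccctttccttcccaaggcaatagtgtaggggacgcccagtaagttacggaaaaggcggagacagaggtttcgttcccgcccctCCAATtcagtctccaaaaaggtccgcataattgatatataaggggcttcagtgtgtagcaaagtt
The octamer begins at -46, -46 and -49 in the 3 H2B promoters, counted from the start site, and neither H4 window holds one. Over the 55 of 64 genes matched to a promoter on the same strand as in the files, ATTTGCAT lay on either strand in 26 (47.3%), against 1.66% of 27305 promoters of all genes. It was present in 11 of 15 H2A and 14 of 18 H2B promoters, in 1 of 11 H3 and in 0 of 11 H4 promoters. CCAAT was in 47 of 55 (85.5%, against 33% of all promoters) and TATAAA in 38 of 55 (69.1%, against 11.1%). A CCAAT that runs into an ATTTGCAT would count for both. The octamer was found in 12 of 23 promoters of genes with a mean of at least 1 FPKM, 12 of 28 of lower ones and 2 of 4 of those listed at 0. Within H2A it was in 5 of 9 of the first kind and 5 of 5 of the second, and within H2B in 7 of 9 and 6 of 8. A match is a description of the letters in this window.

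The core histone signal was uneven over the copies. The mean over the 4 libraries reached 1 FPKM in 25 genes (9 of 17 H2A, 10 of 20 H2B, 2 of 13 H3 and 4 of 14 H4), which are called expressed below, and these took 87.4% of the FPKM of all 64. Another 35 were above 0 and under 1 FPKM. The remaining 4, HIST1H2AA, HIST1H2BA, HIST1H4F and HIST1H4G, were listed at 0 in every library. HIST1H2AA and HIST1H2BA are a divergent H2A and H2B pair known from the testis. The 5 highest genes, HIST1H2BK, HIST3H2A, HIST1H2AC, HIST2H2AA3 and HIST2H2AC, together held 44.8%. By type, H2B took 42.8% of the FPKM, H2A 38.2%, H4 12.5% and H3 6.6%, although a nucleosome holds the types in equal number. By cluster, HIST1 took 66.6%, HIST2 23.2%, HIST3 9.7% and HIST4 0.4%.

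**Figure D1:**
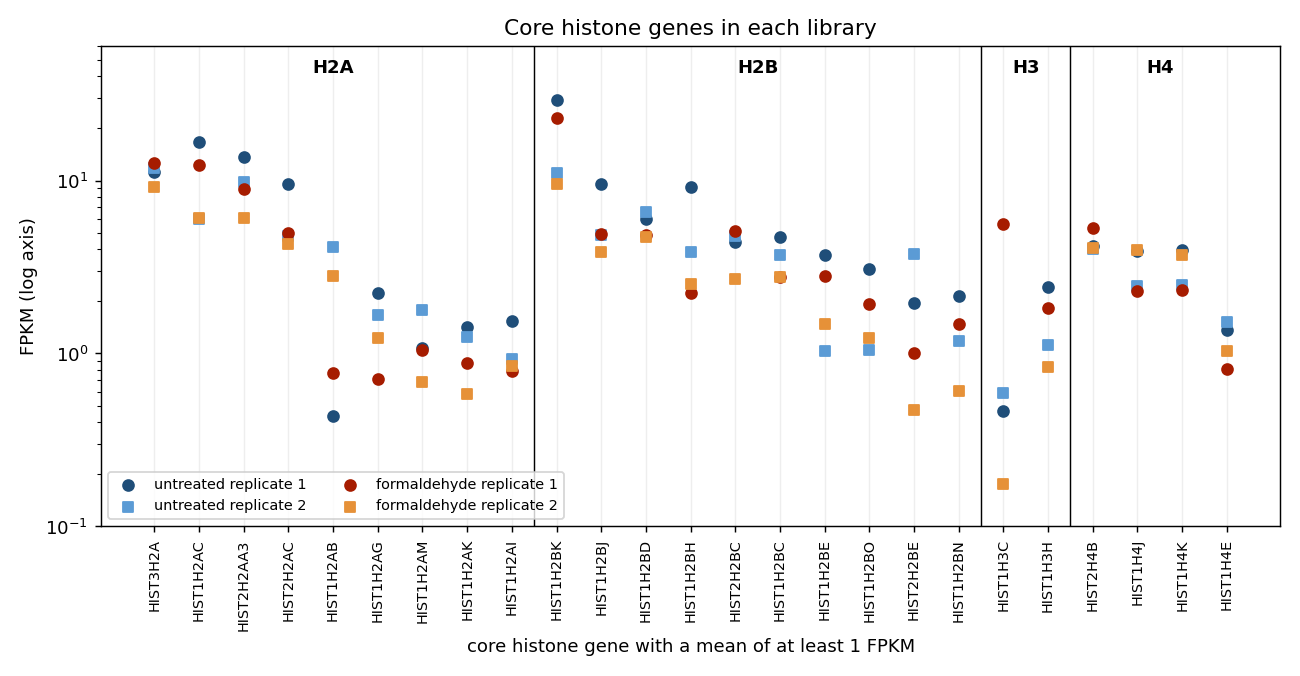
FPKM (log axis) of the 25 expressed core histone genes in each of the 4 libraries, grouped by histone type and ordered by mean. HIST1H2BK is the highest at 9.56 to 29.2 FPKM, HIST1H3C is at 5.60 FPKM in formaldehyde replicate 1 and at 0.176 to 0.592 FPKM in the others, and untreated replicate 1 is the highest library for 15 of the 25 genes.

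The evidence behind these levels is thin, since the genes are short and the libraries held 14.2 to 26.3 M mapped fragments as recovered from the files (M, mega). All 64 genes together drew 1008 and 1119 fragments in untreated replicates 1 and 2, and 634 and 601 in formaldehyde replicates 1 and 2. Only 10 of the expressed genes had at least 10 fragments in every library, and no low gene had more than 14.55 in any. Fragment numbers and the intervals made from them cover counting error only.

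With formaldehyde, core histone messages stood lower in sum, but the 2 groups overlapped. The summed level of all 64 genes was 168 and 115 FPKM in untreated replicates 1 and 2, and 124 and 85.2 FPKM in formaldehyde replicates 1 and 2. The means were 142 ± 37.3 and 105 ± 27.7 FPKM (SD, n = 2 each), a ratio of 0.739. One untreated library lay below one formaldehyde library, and the spread inside each group was about as large as the difference. The log2 ratio of -0.44 ranged from -0.14 without untreated replicate 1 and -0.19 without formaldehyde replicate 2 to -0.68 without untreated replicate 2 and -0.74 without formaldehyde replicate 1. In bulk RNA, fewer cells in S phase and less histone RNA per cell cannot be told apart.

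The H2A and H2B sums carried most of the difference. H2A genes summed to 62.02 and 45.9 FPKM in the untreated pair, against 46.1 and 34.2 FPKM after formaldehyde, a ratio of 0.744. H2B genes summed to 77.7 and 47.6 against 53.4 and 32.3 FPKM, a ratio of 0.684. In both types formaldehyde replicate 1 lay above untreated replicate 2, so the groups overlapped. Without untreated replicate 1 the log2 ratio was -0.20 for H2A and -0.15 for H2B, in place of -0.43 and -0.55. H4 genes summed to 18.5 and 14.7 against 13.4 and 14.9 FPKM, a ratio of 0.853. H3 genes summed to 10.1 and 7.23 against 11.5 and 3.85 FPKM, a ratio of 0.888 whose direction turned with the libraries used. The log2 ratio for H3 was -0.17, but 0.09 without untreated replicate 1, 0.41 without formaldehyde replicate 2 and -1.17 without formaldehyde replicate 1, the library in which HIST1H3C was high.

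By cluster, HIST2 on chromosome 1 was the one with several genes in which the sums of the groups did not overlap. HIST2 genes summed to 36.9 and 30.7 FPKM in the untreated pair, against 27.3 and 19.6 FPKM after formaldehyde, a ratio of 0.694, and the log2 ratio of -0.53 ran from -0.31 to -0.78 with each library left out in turn. HIST1 genes summed to 119 and 71.3 against 82.5 and 55.9 FPKM, a ratio of 0.727. Here the untreated libraries differed by more than the group means did, and without untreated replicate 1 the log2 ratio shrank from -0.46 to -0.04. Within HIST1, the 3 gene-dense parts split by gaps of over 300 kb had ratios of 0.712 (30 genes), 0.707 (5 genes) and 0.793 (15 genes), and the groups overlapped in each of them. HIST3 stood at 12.03 and 12.7 against 13.98 and 9.18 FPKM, and HIST4H4 at 0.286 and 0.726 against 0.675 and 0.432 FPKM, both with overlap.

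**Figure D2:**
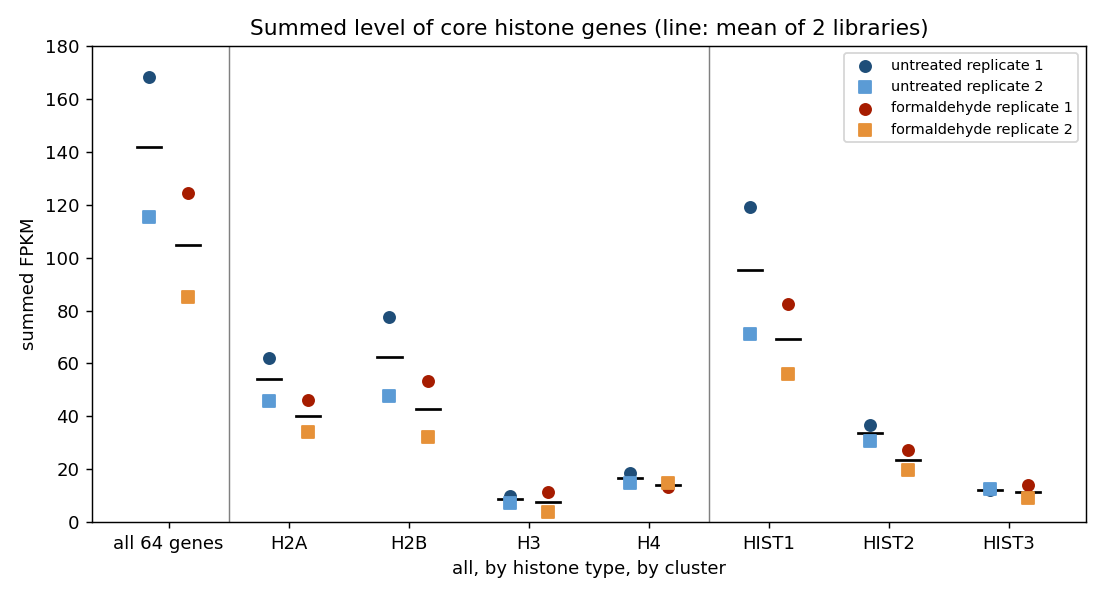
Summed FPKM of core histone genes in each library (points) with the mean of each group of 2 (lines), for all 64 genes, by histone type and by cluster. The sums of HIST2 do not overlap between the groups (30.7 and 36.9 against 19.6 and 27.3 FPKM), while those of all 64 genes, H2A, H2B, H3, H4, HIST1 and HIST3 do.

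No core histone gene passed the test across genes. The 25 expressed genes were among 12407 genes tested with limma on log2(FPKM + 1), on which low genes appear to differ less than they do in FPKM, and every one of them had a limma adjusted p = 0.9999. At the same threshold 0.0806% of all tested genes were called higher and 0.0725% lower. At an unadjusted limma p under 0.05 the count was 2 genes lower, HIST2H2BE and HIST1H2BH, and 0 higher, against 0.838% lower and 1.93% higher over all tested genes. With no filter on low values the counts were 11 lower and 1 higher of 60, against 1.46% lower and 2.1% higher of 18317 genes. An exact permutation test on 2 against 2 libraries cannot give a p below 0.333.

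The fitted values leaned one way without passing. Of the 25 genes, 23 had a log2 fold change below 0, as had 44.9% of all tested genes. That number was 21 of 25 with a pseudocount of 0.1 or quantile normalization and 16 of 25 on leaving out either untreated replicate 1 or formaldehyde replicate 2. The formaldehyde pair lay wholly below the untreated pair in 10 of 25 (40.0%), beside 10.7% of all tested genes and 10.7% of the 168 tested genes with a transcript of 350 to 600 nt. The reverse held for 0 of 25, beside 16.2% and 11.9%. Among the 10, HIST2H2BE, HIST1H2AG, HIST1H4E, HIST1H2AM, HIST1H2AK and HIST1H2AI had formaldehyde means of 0.730 to 0.970 FPKM. They reached a mean of 1 FPKM only through the untreated pair. The filter itself thus favours lower values among genes near it, and the 40.0% is in part set by it. With a library fewer, which leaves less room for overlap, the 10 became 11 or 19 without untreated replicate 1 or 2 and 18 or 12 without formaldehyde replicate 1 or 2. The share over all tested genes was not counted with a library left out, so these counts cannot be set against the 10.7%. The median log2 fold change was -0.28 over the 25 genes and 0.03 over all tested genes. Leaving out untreated replicate 1 gave -0.13 and leaving out untreated replicate 2 gave -0.59. In each library the median stood at 0.20 and -0.20 in untreated replicates 1 and 2 and at -0.31 and -0.46 in formaldehyde replicates 1 and 2, measured from the untreated mean. These genes are known to share S phase control and some share sequence, so they are not independent of each other.

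**Figure D3:**
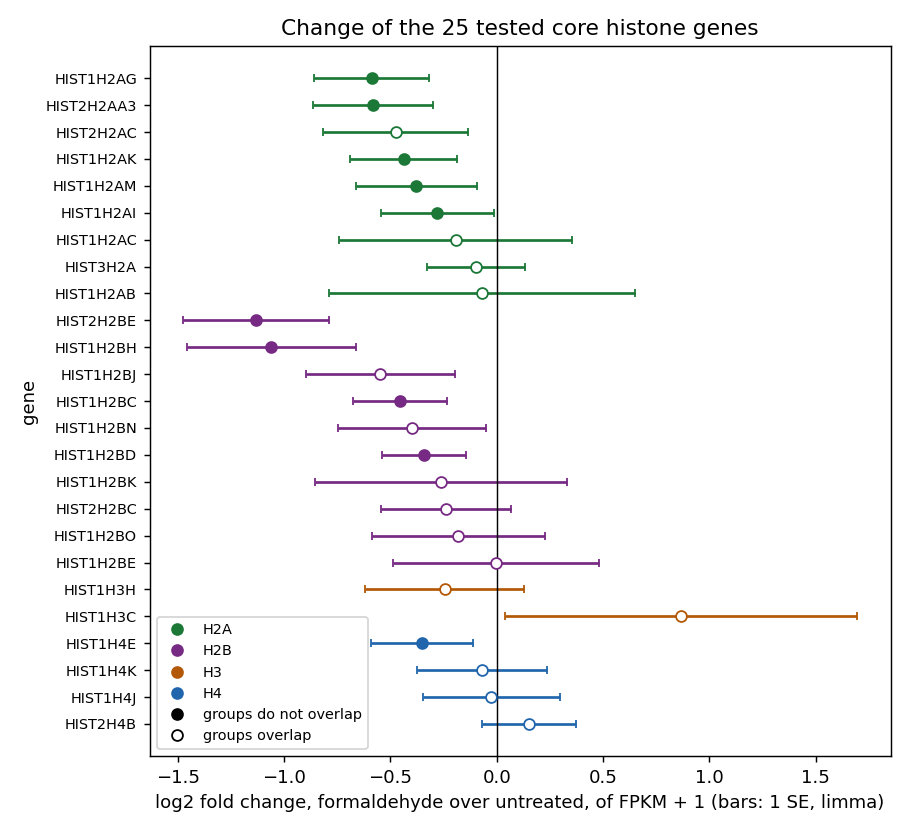
Log2 fold change (formaldehyde over untreated, FPKM + 1) of the 25 tested core histone genes with 1 SE from limma, coloured by histone type. Filled points are the 10 genes whose groups do not overlap; all 19 H2A and H2B genes lie below 0 on this scale (21 of the 25 genes with a pseudocount of 0.1 in place of 23), HIST2H2BE and HIST1H2BH lie lowest (-1.13 and -1.06), and HIST1H3C and HIST2H4B lie above 0.

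All 9 expressed H2A genes had a fitted value below 0 with a median of -0.38, though with a pseudocount of 0.1 HIST1H2AB lay above 0. The formaldehyde pair lay wholly below in 5 of 9, beside 10.7% of all tested genes. Of these, HIST1H2AG, HIST1H2AI, HIST1H2AK and HIST1H2AM reached a mean of 1 FPKM only through the untreated pair. The count is thus in part set by the filter and cannot be read against the 10.7%. HIST2H2AA3, which encodes a common H2A protein (chromosome 1, hg19, 149813785 to 149814318), was at 13.7 and 9.77 FPKM in the untreated pair, against 8.94 and 6.11 FPKM after formaldehyde. Both formaldehyde libraries were the lower ones, by a log2 fold change of -0.58 ± 0.28 (SE, limma unadjusted p = 0.0935). The 51-base words of its transcript, the length of a read, are all shared with HIST2H2AA4, its duplicate, so the value belongs to the pair. HIST1H2AG (chromosome 6, 27100817 to 27101314) was at 2.23 and 1.67 FPKM in the untreated pair, against 0.717 and 1.22 FPKM after formaldehyde, from 3 to 13 fragments a library, with a log2 fold change of -0.59 ± 0.27.

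The other 3 H2A genes without overlap were close to the limit of 1 FPKM and, like HIST1H2AG, passed it through the untreated pair. HIST1H2AI was at 1.53 and 0.926 against 0.795 and 0.848 FPKM, HIST1H2AK at 1.42 and 1.25 against 0.878 and 0.583 FPKM, and HIST1H2AM at 1.08 and 1.79 against 1.04 and 0.686 FPKM. Their gaps between the groups are small beside counts of 3 to 13.45 fragments. HIST3H2A (chromosome 1, 228645065 to 228645560), the highest H2A gene and the one expressed copy of HIST3, was at 11.3 and 11.8 FPKM in the untreated pair, against 12.6 and 9.12 FPKM after formaldehyde. Its groups overlapped, and the log2 fold change of -0.10 became 0.11 without formaldehyde replicate 2.

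The 10 expressed H2B genes held both the highest gene and the lowest fitted values. All 10 had a fitted value below 0 with a median of -0.37 (-0.21 on leaving out either untreated replicate 1 or formaldehyde replicate 2), though HIST1H2BE lay above 0 with a pseudocount of 0.1 or quantile normalization. The formaldehyde pair lay wholly below in 4 of 10, beside 10.7% of all tested genes. HIST2H2BE, a single long exon in the files (2223 nt, chromosome 1, 149856010 to 149858232), was at 1.96 and 3.76 FPKM in the untreated pair, against 1.002 and 0.470 FPKM after formaldehyde. These values rest on 66.6 and 200.9 fragments against 28.8 and 21.1, and the gene passed the filter through the untreated pair. The groups did not overlap, and the intervals deposited by the authors lay apart between the groups (1.48 to 2.45 and 3.23 to 4.29 against 0.629 to 1.38 and 0.266 to 0.675 FPKM). The 2 untreated intervals lay apart from each other as well. These intervals cover counting error only, so they cannot speak for a difference between the groups. The log2 fold change was -1.13 ± 0.34 (limma unadjusted p = 0.022, adjusted p = 0.9999), and it ran from -0.79 to -1.47 as each library was left out.

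HIST1H2BH (chromosome 6, 26251879 to 26252303) was at 9.15 and 3.84 FPKM in the untreated pair, against 2.22 and 2.51 FPKM after formaldehyde, from 34, 22.5, 7 and 12.3 fragments. The groups did not overlap, but untreated replicate 1 stood far above the rest. The log2 fold change of -1.06 ± 0.40 (limma unadjusted p = 0.0449) was -0.53 without that library. HIST1H2BC was at 4.69 and 3.70 against 2.78 and 2.76 FPKM, with a log2 fold change of -0.46 ± 0.22. HIST1H2BD, which has a spliced second transcript, was at 6.002 and 6.61 against 4.82 and 4.70 FPKM in sum, with a log2 fold change of -0.34 ± 0.20. In that sum the 2 libraries of each group lay close together, nearer to each other than to the other group. Its unspliced transcript of 487 nt was at 4.38 and 4.32 against 2.53 and 3.17 FPKM. The spliced one of 813 nt was at 1.62 and 2.28 against 2.29 and 1.53 FPKM, with overlap.

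HIST1H2BK (chromosome 6, 27106072 to 27114637), the highest core histone gene and one with a spliced model of 839 nt, split by replicate number and not by treatment. It was at 29.2 and 11.1 FPKM in the untreated pair, against 23.1 and 9.56 FPKM after formaldehyde, from 135 to 311 fragments. Replicate 1 of each group was more than 2 times replicate 2, and the log2 fold change of -0.26 ± 0.59 became 0.40 without untreated replicate 1 and 0.33 without formaldehyde replicate 2. Replicate 1 lay above replicate 2 in both groups for 12 of the 25 expressed genes and below it in both for 2. Without HIST1H2BK the summed level of the other 63 genes had a ratio of 0.727.

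H3 had the smallest summed level of the types, with 2 of 13 genes at a mean of at least 1 FPKM. HIST1H3C (chromosome 6, 26045639 to 26046097) was at 0.466 and 0.592 FPKM in the untreated pair, against 5.60 and 0.176 FPKM after formaldehyde. Formaldehyde replicate 1 held 20.3 fragments of it, where the other libraries held 1 to 4, and the gene passed the filter through that library alone. Its authors' interval there (3.12 to 8.08 FPKM) lay above those of the other libraries, which reached 1.18 FPKM at most. The log2 fold change of 0.87 ± 0.83 was -0.38 without that library. HIST1H3H, the other one, was at 2.43 and 1.12 against 1.83 and 0.836 FPKM, with overlap.

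Among the 4 expressed H4 genes, 3 had a fitted value below 0 (2 with quantile normalization, where HIST1H4J lay above 0) and 1 had groups that did not overlap, beside the same 10.7%. HIST2H4B (chromosome 1, 149804221 to 149804616), the highest H4 gene, was at 4.18 and 4.03 FPKM in the untreated pair, against 5.30 and 4.10 FPKM after formaldehyde, a log2 fold change of 0.15 ± 0.22 which became -0.002 on leaving out formaldehyde replicate 1. All its 51-base words are shared with HIST2H4A. HIST1H4E was at 1.37 and 1.52 against 0.810 and 1.04 FPKM from 2 to 7 fragments, without overlap. This gene passed the filter through the untreated pair. HIST1H4J and HIST1H4K are twins in sequence over the whole of HIST1H4K. The fragment numbers recovered for them were 10 and 10, 10 and 10, 5 and 5, and 13.5 and 12.5 in the 4 libraries, so these 2 genes cannot be told apart. The H4 median was -0.05 over 4 genes, and leaving out untreated replicate 1 or 2 gave 0.18 or -0.29, and leaving out formaldehyde replicate 1 or 2 gave 0.09 or -0.32. Whether H4 differs from H2A and H2B in its response was not tested.

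The 35 low genes were counted apart, since they were not tested. In sum they stood at 20.1 and 19.2 FPKM in the untreated pair, against 13.1 and 9.69 FPKM after formaldehyde. The groups did not overlap in this sum, which had a ratio of 0.581 and rested on 48.5 to 139 fragments a library. The formaldehyde pair lay wholly below the untreated pair in 16 of the 35 (45.7%), beside 14.2% of the 5910 genes of all kinds in this range of levels. They lay above in 2 (5.7%, beside 10.7%), HIST1H2BL and HIST1H2BM. By type the lower ones were 4 of 7 H2A, 4 of 9 H2B, 5 of 11 H3 and 3 of 8 H4 genes. The highest of the low genes, HIST1H3B, was at 1.33 and 0.845 against 1.14 and 0.336 FPKM, with overlap. In 4 of the 16 both formaldehyde libraries were listed at 0, where the untreated libraries held 0.5 to 3 fragments, and single low genes are not described further. The number of the 64 genes listed at 0 was 8 in each untreated library, 15 in formaldehyde replicate 1 and 12 in replicate 2. Of all 23004 genes, 6594 and 5745 were listed at 0 in untreated replicates 1 and 2, and 6373 and 6259 in formaldehyde replicates 1 and 2. The depths were 16.8 and 26.3 M against 14.2 and 22.2 M fragments, and the part of depth in these counts was not tested.

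Genes that share a divergent promoter were not held at one level. The files hold 12 pairs of an H2A and an H2B gene that start back to back, 240 to 347 bp apart. In 5 pairs both were expressed, in 3 pairs only one and in 4 pairs neither. HIST1H2BK was at a mean of 18.2 FPKM and HIST1H2AH, which starts 271 bp away, at 0.403 FPKM, while HIST3H2A was at 11.2 and HIST3H2BB at 0.549 FPKM, 248 bp apart. The pair HIST2H2BE and HIST2H2AC, 293 bp apart, was at 1.80 and 5.91 FPKM. HIST2H2AC was at 9.57 and 4.79 FPKM in the untreated pair, against 4.97 and 4.31 FPKM after formaldehyde, so that its groups overlapped where those of HIST2H2BE did not. FPKM is a level per length of the listed model, and a model that is longer than the real message lowers it. The HIST2H2BE model is 2223 nt.

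The genes that make and handle histone messages showed no common direction. Of 35 listed genes of histone mRNA synthesis and processing, all were tested, 0 were called in either direction (0 also at an unadjusted limma p under 0.05), 17 were above 0 and 18 below, and the median log2 fold change was 0.00. SLBP, the stem-loop binding protein, was at 60.96 and 59.1 FPKM in the untreated pair, against 55.0 and 65.4 FPKM after formaldehyde. NPAT, the coactivator of histone genes, was at 7.33 and 6.03 against 6.01 and 5.67 FPKM, and its groups did not overlap by a narrow gap. NFYB, a subunit of the factor that binds CCAAT, was at 15.8 and 13.3 against 7.31 and 11.1 FPKM, without overlap (log2 fold change -0.63 ± 0.26). LSM10, a protein of the U7 particle, was at 40.1 and 37.5 against 48.5 and 59.6 FPKM, and LSM1, of the complex that opens histone mRNA decay, at 23.01 and 15.7 against 26.7 and 25.3 FPKM, both higher without overlap. Of the 35 genes, 3 were lower and 5 higher without overlap, beside 10.7% and 16.2% of all tested genes.

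Other histone genes gave the following values. HIST1H1C, a replication-dependent linker histone gene in the HIST1 cluster, was at 38.4 and 26.8 FPKM in the untreated pair, against 19.2 and 17.9 FPKM after formaldehyde. Its groups did not overlap (log2 fold change -0.76 ± 0.25, limma unadjusted p = 0.0274). Of 10 linker histone genes 3 were tested, and the other named one, H1FX, overlapped. Of 15 replacement variants, which are made outside S phase as well, 10 were tested, with 0 called, 8 below 0 and a median of -0.15. H2AFX, the variant marked at DNA breaks, was at 170 and 173 against 116 and 130 FPKM, and H2AFY, macroH2A, was at 161 and 142 against 195 and 192 FPKM, each without overlap. The 25 histone chaperones had a median of -0.01, with 0 called, IPO4 higher (12.4 and 9.45 against 15.3 and 15.6 FPKM) and ATRX lower (9.59 and 10.8 against 6.96 and 8.87 FPKM) without overlap. Lower without overlap were 1 of the 3 tested linker genes, 2 of the 10 variants and 2 of the 25 chaperones. Higher without overlap were 0, 1 and 1 of them. Over all tested genes those shares were 10.7% and 16.2%.

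Values for S phase genes and for RNA without a poly(A) tail are set beside those of the core histones, and their part in the result was not tested. Over the 48 genes of DNA replication and S phase the median fitted value was -0.18, 41 lay below 0, 10 were lower and 2 higher without overlap, and 0 were called. Over all tested genes 44.9% lay below 0, 10.7% were lower and 16.2% higher without overlap. In each library their median stood at 0.10 and -0.10 untreated and at -0.31 and -0.01 in formaldehyde replicates 1 and 2. In formaldehyde replicate 2, where core histones stood lowest, the S phase genes lay between the untreated libraries. No gene of the S phase, variant or chaperone lists had an unadjusted limma p under 0.05. E2F2 was at 3.72 and 5.18 against 1.39 and 3.31 FPKM. RNA made without a poly(A) tail (17 of 33 listed genes found, 10 tested) summed to 521 and 334 FPKM in the untreated pair, against 643 and 208 FPKM after formaldehyde. Replicate 1 was the higher library in both groups, as for HIST1H2BK, and the order of the medians was 0.32 and -0.32 untreated against 0.69 and -1.14. RNU4ATAC, a minor spliceosome RNA, was at 94.7 and 40.1 against 62.1 and 15.9 FPKM, while VTRNA1-2, a vault RNA, was listed at 0 in both formaldehyde libraries and at 112 and 35.4 FPKM untreated. FPKM is a level per length, so in a very short transcript few fragments give a high value. The fragments behind this list are not given here, and its sums and the 112 FPKM may rest on few. Testing only genes of at least 300 nt took the genes called from 19 to 1. The protocol does not say how messenger RNA was selected.

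**Figure D4:**
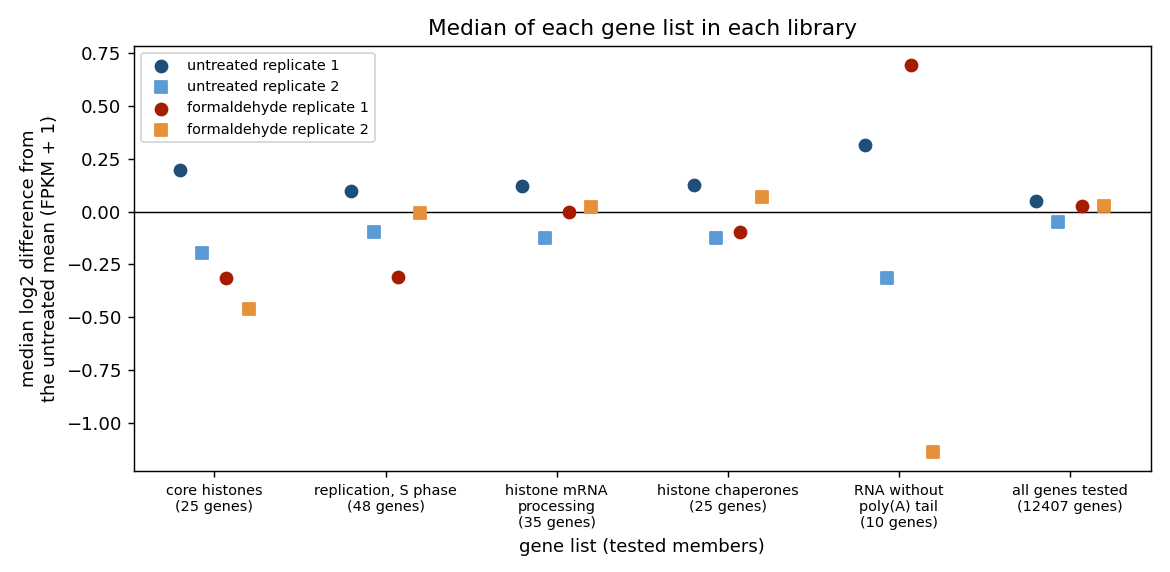
Median log2 difference from the untreated mean (FPKM + 1) of each gene list in each library, with the number of tested genes. Core histones are at 0.20 and -0.20 untreated and at -0.31 and -0.46 with formaldehyde; S phase genes are low in formaldehyde replicate 1 only (-0.31 against -0.01), and RNA without a poly(A) tail runs from 0.69 in formaldehyde replicate 1 to -1.14 in replicate 2.

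The labelled cell type was checked on fixed markers. The keratins KRT7, KRT8 and KRT18 were at 140 to 531 FPKM in every library, while KRT5 was listed at 0, CDH1 was at 0.061 to 0.631 FPKM and EPCAM at 0.983 to 3.18 FPKM. The epithelial list (10 genes, 6 tested) summed to 740 and 834 FPKM in the untreated pair, against 1403 and 1209 FPKM after formaldehyde, with KRT7 at 191 and 140 against 531 and 319 FPKM and KRT18 at 226 and 206 against 358 and 418 FPKM, while ITGB4 was at 3.88 and 14.5 against 2.22 and 4.92 FPKM and KRT17 at 26.4 and 178 against 61.2 and 48.04 FPKM. Fibroblast markers summed to 445 and 803 against 284 and 442 FPKM, nearly all from COL1A1 and THY1, with COL3A1, DCN and PDGFRA at or near 0 and PDGFRB at 21.8 and 30.0 against 7.40 and 22.2 FPKM. The leukocyte marker CD3E was listed at 0, PTPRC reached 0.023 FPKM at most, CORO1A was at 1.53 and 2.69 against 4.75 and 4.02 FPKM and CD68 at 12.8 and 16.4 against 42.8 and 22.04 FPKM, CD14 was at 3.75 and 11.98 against 1.77 and 6.23 FPKM, and the 5 endothelial markers summed to 0.21 FPKM at most. Long nuclear RNA (5 of 6 found, 3 tested) summed to 273 and 714 against 546 and 398 FPKM, with MALAT1 at 27.2 and 92.5 against 38.7 and 38.5 FPKM and TUG1 at 28.0 and 25.8 against 22.5 and 24.3 FPKM. The part of these lists in the core histone values was not tested.

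Several values depend on how reads of near-identical copies were assigned. Of 62 core histone genes with 1 transcript in the files, 37 had a fragment number that was not whole in some library (tolerance 0.05), which can come about when a fragment is divided between genes. By GENCODE transcript, 30 of the 64 genes share no 51-base word with another histone gene, HIST1H2BH among them, while HIST2H2BE shares 8.0% and HIST1H2BK 73.4%. The HIST1H2BK share is that of a 381-nt transcript. Its deposited model has 839 nt, and the rest of that model was not examined. HIST1H2BK also overlaps HIST1H4I on the opposite strand, and the strand setting is not given in the sources used here. Among the 13 tested genes with under 10% of their words shared, 12 had a value below 0, beside 44.9% of all tested genes. The formaldehyde pair lay wholly below in 7 of the 13 (53.8%), beside 10.7% of all tested genes, and the median was -0.35. HIST2H2BE, HIST1H2AG, HIST1H2AK and HIST1H4E among them passed the filter through the untreated pair. Over the 24 tested genes that are not pseudogenes the median was -0.31.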

How the data were processed

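The tools named in the submitters' processing notes are STAR 2.5.2, FastQC 0.10.0 and Cufflinks 2.0.2; the builds named there are GRCh37 and hg19. Per the file headers and attributes, the deposited values are FPKM of 40255 transcripts per library, with bounds of an interval; neither strand setting nor handling of multi-mapped reads is given in the sources used here. FPKM were summed over the transcripts of each gene name, and 894 transcripts without one (1.07% to 1.31% of FPKM) were left out. Fragment numbers and depth (14.2 to 26.3 M) were recovered from the deposited bounds and served as description only. Genes with a mean of at least 1 FPKM (12407) were tested, formaldehyde against untreated, by limma 3.58.1 (R 4.3.3) after a log2(FPKM + 1) transform (mean trend, two-sided, Benjamini-Hochberg over all tested genes, threshold 0.05), checked on simulated data. Groups do not overlap where both libraries of one lie beyond both of the other.

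The core histone genes and the other gene lists were chosen with earlier results of these data known. Named core histone genes are those expressed genes without overlap, with an unadjusted p under 0.05, highest of their type or cluster, or higher with formaldehyde, and the highest low gene. Of the processing list the 3 genes with the largest moderated t were named beside SLBP and NPAT, and of other lists at most 2; some values are not reported here. HIST1H2AB, HIST1H2AC, HIST2H2AC, HIST1H2AH, HIST1H2BE, HIST3H2BB, HIST1H3H, HIST1H4J, HIST1H4K, HIST1H2BL, HIST1H2BM, HIST4H4, the genes listed at 0 and the further markers were named after their values were seen. Stem-loops and 51-base words come from GENCODE 29 transcripts, promoters from RefSeq (GRCh38.p14; 1 gene on another strand there than in the files was left out), and gene coordinates are hg19 as deposited. Alternatives were the pseudocount (0.1), the filter (none, or 5 FPKM), 3 rescalings, eBayes robust or without trend, the highest transcript alone, genes of 300 nt or more, a replicate block and each library left out; 4 subsets of core histone genes were added after seeing the data. Figures were drawn with matplotlib 3.10.9.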

Additional observations from a re-analysis of the deposited data

How the results depend on the processing

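Depth limits every value here, since 15 of the 25 tested core histone genes had under 10 fragments in at least 1 library. The main fit leaves 2 residual degrees of freedom, and limma moderates the variance of each gene with that of the others. No core histone gene passed under any setting; the smallest adjusted p was 0.168 (HIST1H3E) with no filter and 0.57 (HIST2H2AA3) under the replicate block. The number of all genes called, 19, became 0 with no filter, 1 with genes of at least 300 nt and 29 with the replicate number as a block; same-numbered libraries deviated together over 12407 genes (r = 0.25) and over the 25 core histone genes (r = 0.30), across genes that are not independent, but the labels do not tie the numbers together. It was 31 to 55 with 1 library left out. The 10 tested core histone genes below untreated without overlap became 26 of 60 with no filter. Beside them stood 10.7% of all genes at a mean of at least 1 FPKM and 14.2% of those under it. At a mean of at least 5 FPKM they became 2 of 7, fewer genes being tested, and the share over all genes was not counted there. With 1 library left out they became 11 to 19, where fewer libraries can overlap, and the share over all genes was again not counted.

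Leaving out 1 library moved the median log2 fold change between -0.59 and -0.13 for core histones, -0.59 and -0.11 for HIST1, -0.79 and -0.29 for HIST2 and -0.32 and 0.18 for H4, and the log2 ratio of the H3 sum between -1.17 and 0.41. The sign turned for HIST1H2BK (0.40 without untreated replicate 1, 0.33 without formaldehyde replicate 2; range from -0.92), HIST1H3C (-0.38) and HIST2H4B (-0.002) without formaldehyde replicate 1 (ranges up to 2.11 and 0.30), SLBP (0.12 without formaldehyde replicate 1, 0.02 without untreated replicate 1; range from -0.12) and HIST3H2A (0.11 without formaldehyde replicate 2; range from -0.31), and the cause was not tested. The other 223 single-gene values under an alternative kept their direction and side of the threshold. The other 167 summary values moved by less than the replicate spread or, for counts, by a limited factor, such as 19 to 24 genes called with a pseudocount of 0.1. That spread is wide, 0.83 in log2 for the H3 sum, so some of the 167 changed sign. The H3 sum went from -0.17 to 0.41 without formaldehyde replicate 2, and the H4 median from -0.05 to 0.18 without untreated replicate 1.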
